A study of Drosophila melanogaster with 9 samples.

Results

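The Arp2/3 complex and the proteins that switch it on were examined in sorted cells of the Drosophila wing imaginal disc, a larval epithelium that becomes the adult wing. The set was fixed by name and held 9 genes, the 7 complex subunits Arp2, Arp3, Arpc1, Arpc2, Arpc3A, Arpc4 and Arpc5 and the activators SCAR and WASp. Of the 11982 genes tested, 6 were members with a probe set of their own, 5 subunits and the activator SCAR. No probe set was assigned to Arp2, Arp3 or WASp in the probe table used, and these 3 were not analysed here. Arpc1 was formerly called Sop2.

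Expression was measured on 9 Affymetrix arrays, with 3 biological replicates for each of 3 cell populations from w1118 larvae about 8 days old. All larvae carried the en-gal4 driver, which acts in the posterior compartment of the disc, with p35 (a viral protein that blocks caspases and so keeps dying cells alive), a dsRNA form of asp (a spindle pole gene), RFP and an MMP1-GFP reporter of matrix metalloproteinase expression. Delaminating cells were positive for RFP and GFP, posterior cells were positive for RFP alone, and anterior cells were negative for both. Posterior cells thus shared the en-gal4 driven transgenes with delaminating cells and lacked the GFP signal of the reporter, whereas anterior cells differed from both in compartment and in en-gal4 driven expression, and could include any disc cell without fluorescence.

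As background, Arp2/3 starts a new actin filament on the side of an existing filament, so that a branched network grows and pushes on a membrane. The complex is nearly inactive by itself. SCAR, within the WAVE complex and downstream of the GTPase Rac, and WASp, downstream of Cdc42, bring actin monomers to it and trigger branching. In Drosophila these proteins act in cell protrusions, at epithelial junctions, in endocytosis, in blood cell migration and in the fusion of muscle precursors.

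The arrays had median log2 signals between 7.47 and 7.55 and lower quartiles between 6.01 and 6.34. No detection calls were used, so signals below the lower quartile were not shown to be above background. The compartment labels were checked on en, a posterior selector gene, with a mean log2 signal of 10.43 in delaminating, 10.54 in posterior and 7.16 in anterior cells, and on ci, an anterior gene, with 7.90, 8.33 and 9.97 in the same order. For asp, the target of the dsRNA, and for Mmp1 the table used held no probe set of their own, so neither was analysed here. Anterior replicate 3 stood apart, with correlations of 0.889 to 0.915 with the other arrays, a lower upper quartile of 8.78 (9.05 to 9.09 on the others) and the lowest value of its group for 59.2% of all genes. Delaminating replicate 2 carried more signal of hemocyte genes, the genes of larval blood cells. The 12 hemocyte markers averaged 9.86 on it, against 7.85 and 7.74 on the other delaminating arrays, 6.98 to 8.01 on the posterior and 7.28 to 8.27 on the anterior arrays (mean log2 signal). The members' results are also given without these arrays. In RNA from pooled sorted cells, more cells of a type and more RNA per cell cannot be told apart.

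In delaminating cells all 5 measured subunits had a higher mean signal than in posterior cells, and SCAR did not. Arpc1 rose 2.06-fold and was the 1 member called. Arpc5, Arpc4, Arpc3A and Arpc2 had log2 differences of 0.67, 0.60, 0.50 and 0.45 that did not pass the test. A gene was called where limma's Benjamini-Hochberg adjusted p over all 11982 genes was under 0.05, which held for 0.643% of genes in the higher and 0.159% in the lower direction (0.801% in either).

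Arpc1, on chromosome arm 2L, encodes the beta-propeller subunit that helps activators dock onto the complex. Its log2 signal was 11.44, 11.80 and 11.48 in delaminating cells, against 10.46, 10.55 and 10.58 in posterior cells. Every delaminating value lay above every posterior value, and also above the 10.75, 10.90 and 10.52 of anterior cells. The difference from posterior cells was 1.04 ± 0.17 (log2, SE, limma adjusted p = 0.0363), and 1.59% of all genes had a larger one. Over 19 alternative settings the difference lay between 0.93 and 1.11. Many of these change only the spread, the genes tested or the anterior arrays, and so cannot move it from 1.04. With 1 delaminating or posterior array left out it was 0.93 to 1.11. The call held in 10 of the 19 settings. Adjusted p rose to 0.0834, 0.0887 and 0.125 without delaminating replicate 1, 2 or 3, to 0.18, 0.162 and 0.107 without posterior replicate 1, 2 or 3, and to 0.0581 and 0.0536 without anterior replicate 1 or 2. Without anterior replicate 3 it was 0.0102, where the difference itself is the same and the estimate of the spread, which pools all arrays, is not. By its type, the single Arpc1 probe set may also match other transcripts.

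**Figure D1:**
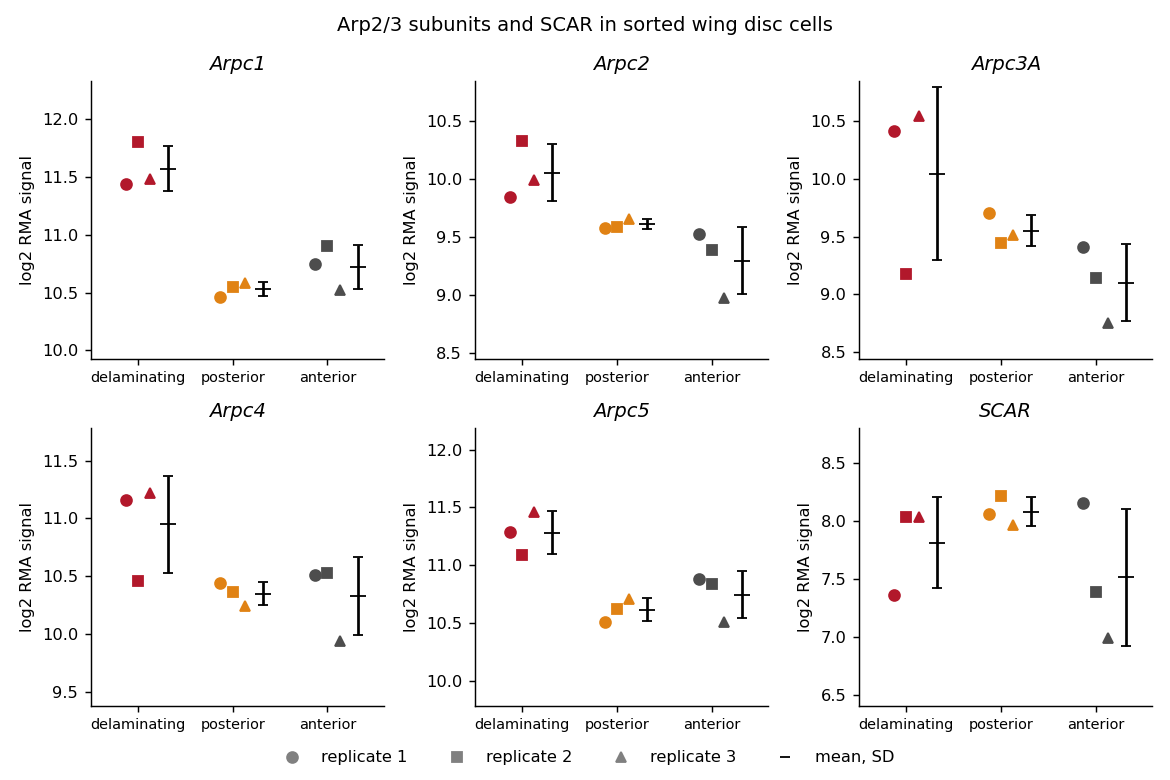
Log2 RMA signal (y axis) of the 6 measured members in delaminating, posterior and anterior cells (x axis), with a point per array, shaped by replicate number, and the mean ± SD of each group in black. Each panel spans 2.4 log2 units around its own middle. Arpc1, Arpc2 and Arpc5 lie higher on all 3 delaminating arrays than on the other arrays, Arpc3A and Arpc4 drop on delaminating replicate 2, and SCAR overlaps between groups.

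Arpc5 encodes a small helical subunit that sits beside Arpc1 in known structures of the mammalian and yeast complexes. It had log2 signals of 11.29, 11.09 and 11.46 in delaminating cells, against 10.51, 10.62 and 10.71 in posterior cells. These groups did not overlap, at a 1.59-fold higher mean (95% interval of the log2 difference 0.28 to 1.06, limma adjusted p = 0.155). Adjusted p was 0.0458 without anterior replicate 3, again at the same difference of 0.67.

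Arpc2 and Arpc4 form the structural core of the complex and contact the mother filament. Arpc4 had log2 signals of 11.16, 10.46 and 11.22 in delaminating cells, against 10.44, 10.36 and 10.24 in posterior cells. The groups were separate only narrowly, because delaminating replicate 2 lay well below the rest of its group (limma adjusted p = 0.422). Arpc2 had 9.85, 10.33 and 9.99 in delaminating cells, against 9.58, 9.59 and 9.66 in posterior cells. For Arpc2 the same array was the highest, the groups were separate, and the interval of the log2 difference was 0.01 to 0.89 (limma adjusted p = 0.483).

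Arpc3A encodes the subunit next to Arp3 and lies on chromosome arm 3R. Its brightest probe set gave 10.41, 9.18 and 10.54 in delaminating cells, against 9.70, 9.44 and 9.51 in posterior cells. Delaminating replicate 2 was below every posterior array and the other 2 delaminating arrays were above them. The difference of 0.50 had an interval of -0.25 to 1.25 (limma adjusted p = 0.722). A dimmer probe set of the gene repeated this order of arrays, with 8.68, 7.28 and 8.72 in delaminating cells and 8.14, 7.96 and 7.97 in posterior cells, a difference of 0.21. The third probe set of the gene averaged 4.99 over the 9 arrays, below the lower quartiles, with a difference of -0.02.

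SCAR, on chromosome arm 2L, encodes the part of the WAVE complex that activates Arp2/3. It had log2 signals of 7.36, 8.04 and 8.04 in delaminating cells, against 8.06, 8.22 and 7.97 in posterior cells. The groups overlapped. The difference of -0.27 had an interval of -0.94 to 0.40 (limma adjusted p = 0.9), so neither a fall nor a modest rise of SCAR could be told from 0 with 3 arrays a group.

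Among the measured members 4 of 6, all subunits, had delaminating values entirely above the posterior values, against 10.7% of all genes, and no member lay entirely below (11.5% of all genes). The members' median log2 difference was 0.55, and that of all genes was -0.0031. Another setting, chosen after the data had been seen, left out both anterior replicate 3 and delaminating replicate 2. Calls over all 11982 genes then rose from 96 to 270, and those in the higher direction from 77 to 180. Among the higher calls were 4 members. These were Arpc1 at 0.93 (limma adjusted p = 0.0123), Arpc3A at 0.93 (0.0251), Arpc4 at 0.84 (0.0185) and Arpc5 at 0.76 (0.0297), while Arpc2 was at 0.31 (0.234) and SCAR at -0.38 (0.5). Without delaminating replicate 2 alone, 0 members were called by limma, the smallest adjusted p being that of Arpc1, and the members' median was 0.80. In that setting the differences of Arpc3A, Arpc4 and Arpc5 were 0.93, 0.84 and 0.76, and those of Arpc1 and Arpc2 were smaller than with all arrays, at 0.93 and 0.31.

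**Figure D2:**
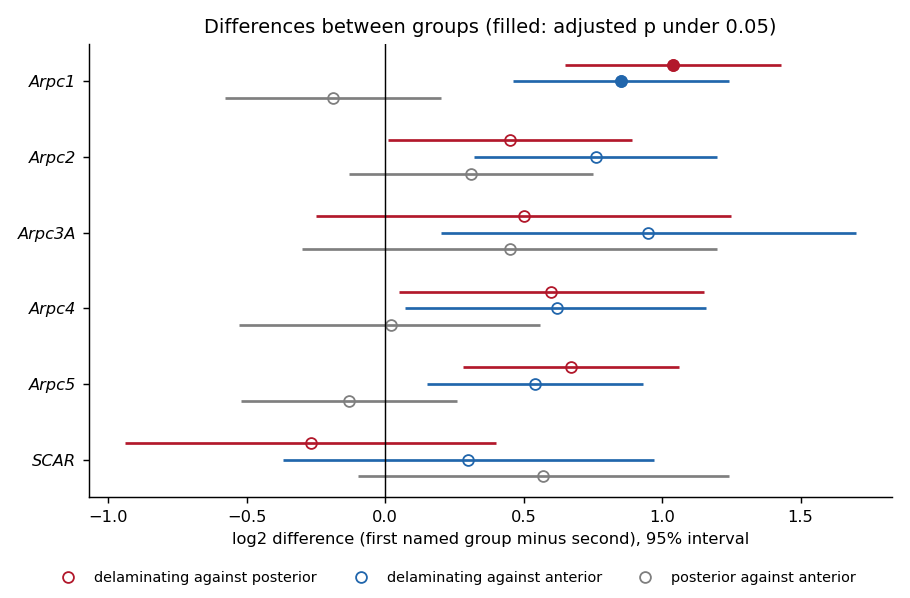
Log2 differences (x axis) of the 6 measured members (y axis) between groups, first named minus second, with 95% intervals from limma, filled where the adjusted p was under 0.05. The subunits lie to the right of 0 in both comparisons of delaminating cells, Arpc1 alone is filled, and the intervals of posterior against anterior cells all include 0.

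Posterior cells were compared with anterior cells next, which sets cells with asp dsRNA, p35 and RFP against cells of the other compartment. Of the 6 measured members limma called 0, with 0 also at an unadjusted p under 0.05, against 0.576% of all genes called in either direction (0.0918% higher, 0.484% lower) and 9.6% at the unadjusted level. Arpc1 had log2 signals of 10.46, 10.55 and 10.58 in posterior cells and 10.75, 10.90 and 10.52 in anterior cells, which overlapped (difference -0.19, interval -0.58 to 0.20, adjusted p = 0.649). Arpc4 was at 10.35 ± 0.10 in posterior and 10.33 ± 0.34 in anterior cells (mean ± SD, n = 3 arrays each), and Arpc5 at 10.61 ± 0.10 and 10.74 ± 0.20. The sign of the Arpc4 difference of 0.02 turned under other scalings, to -0.14 with quantile normalization applied again and -0.01 with arrays centred on their medians.

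Arpc2 and Arpc3A had separate groups in this comparison, with every posterior value above every anterior value, against 11.9% of all genes, and no member had the opposite order (6.47% of all genes). Arpc2 had anterior signals of 9.53, 9.39 and 8.97 and a difference of 0.31, and Arpc3A had anterior signals of 9.41, 9.14 and 8.75 and a difference of 0.45 (limma adjusted p = 0.572 and 0.598). SCAR was at 8.06, 8.22 and 7.97 in posterior cells, against 8.16, 7.39 and 6.99 in anterior cells, which overlapped. Its difference of 0.57 was the largest of the members here, with an interval of -0.10 to 1.24 (adjusted p = 0.559). Anterior replicate 3 had the lowest anterior value for all 6 measured members. Without it the differences were smaller or more negative, at 0.15 for Arpc2, 0.28 for Arpc3A, 0.31 for SCAR, -0.18 for Arpc4, -0.24 for Arpc5 and -0.29 for Arpc1.

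Delaminating cells were also compared with anterior cells. This comparison shares its delaminating arrays with the one against posterior cells, so the values are given side by side and not as a repeat. All 6 measured members had a higher mean in delaminating cells, and Arpc1 was the 1 called, against 2.4% of all genes called in the higher and 1.43% in the lower direction (3.82% in either). Arpc1 rose 1.80-fold (log2 difference 0.85 ± 0.17 SE, limma adjusted p = 0.0258), against 2.06-fold over posterior cells. Arpc3A had a difference of 0.95 (adjusted p = 0.183), Arpc2 of 0.76 (0.0673), Arpc4 of 0.62 (0.239), Arpc5 of 0.54 (0.147) and SCAR of 0.30 (0.651).

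Arpc1, Arpc2 and Arpc5 had every delaminating value above every anterior value, which held for 13.2% of all genes, and no member had the opposite order (8.05%). At an unadjusted p under 0.05 there were 5 of 6 members, against 16.6% of all genes. Arpc4 overlapped through delaminating replicate 2, at 10.46 against anterior values of up to 10.53, and Arpc3A through the same array, at 9.18 against up to 9.41. Without delaminating replicate 2 Arpc3A was called at 1.38 (adjusted p = 0.0167) and Arpc1 was not, at 0.73 (0.0698). The Arpc1 call was also lost without delaminating replicate 1 (0.0654) or 3 (0.0756), posterior replicate 1 (0.0534), 2 (0.052) or 3 (0.0521) or anterior replicate 1 (0.0602), and held without anterior replicate 2 (0.0445) or 3 (0.0319). The members' median was 0.69, that of all genes was 0.05, and without anterior replicate 3 the members' median was 0.51.

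**Figure D3:**
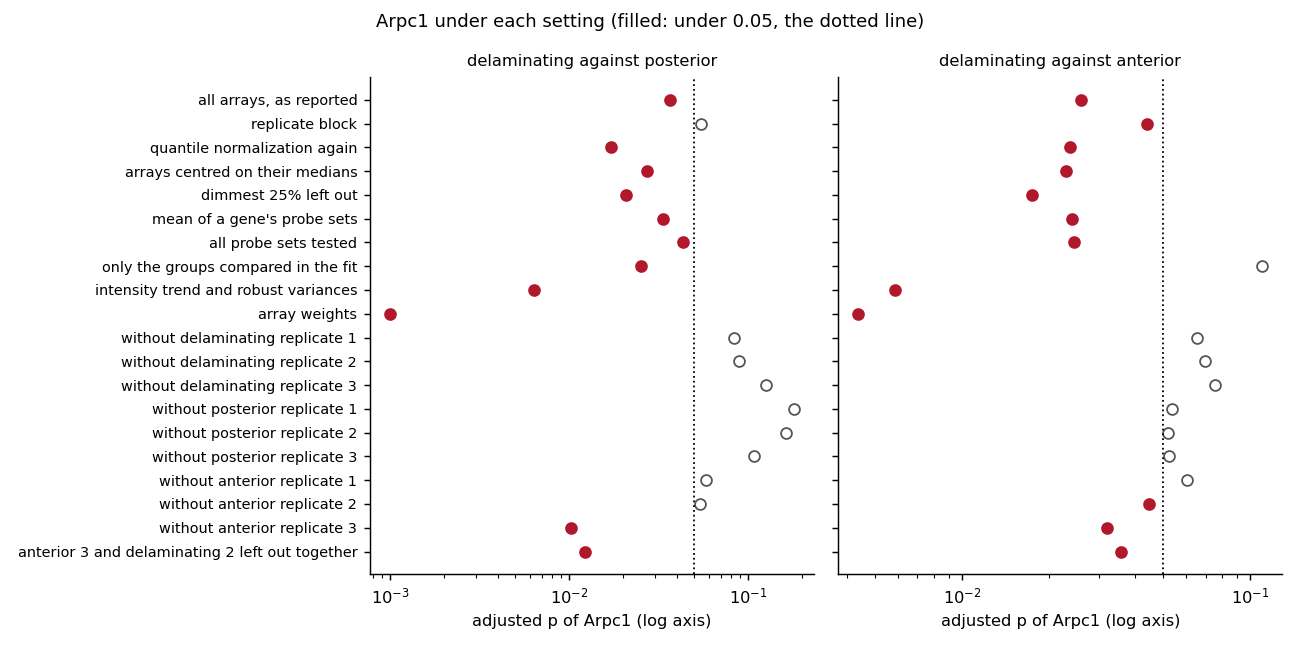
Adjusted p of Arpc1 (x axis, log scale) as reported and under each of 19 alternative settings (y axis), for delaminating against posterior and against anterior cells, filled where under 0.05 (dotted line). The call against posterior cells held in 10 of 19 settings and that against anterior cells in 11 of 19, with losses mainly where an array was left out.

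Other genes of the branching pathway were described from 8 lists of 47 genes, of which 35 had a probe set of their own. Of these 35, limma called Arpc3B higher and hbs lower in delaminating against posterior cells, which is 1 in each direction. Of all genes 0.643% were called higher and 0.159% lower. Against anterior cells it called 2 higher, Vrp1 and Arpc3B, and 3 lower, hbs, rst and kirre (2.4% and 1.43% of all genes). In posterior against anterior cells it called 0, the smallest p outside the fusion genes being that of coro, at a difference of 0.46 (unadjusted p = 0.0232, adjusted p = 0.441). The 3 measured partners of SCAR in the WAVE complex were nearly level between delaminating and posterior cells. Hem (the Nap1 homolog, also called Kette) had a log2 difference of -0.22, Cyfip (the Rac-binding subunit, also called Sra-1) of -0.15 and Abi, which links the complex to Abl kinase, of 0.03. Their intervals reached no further than -0.64 to 0.50, and adjusted p was 0.818 or more. Hem was lower on all 3 delaminating arrays, at 10.46, 10.08 and 10.33 against 10.51, 10.54 and 10.49 in posterior cells. Of the WASH complex, which activates Arp2/3 on endosomes, and Whamy, 5 of 6 genes had a difference below 0, from -0.48 for SWIP to 0.15 for FAM21, and limma called 0 of them, with 0 also at an unadjusted p under 0.05.

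Arpc3B, the second Arpc3 gene of the fly, is on the X chromosome and was called higher in delaminating cells. Its log2 signal was 6.55, 6.70 and 6.52 in delaminating cells, against 5.65, 5.57 and 5.86 in posterior and 5.56, 5.67 and 5.77 in anterior cells. The posterior and anterior signals lay below the lower quartile of their arrays, so no fold is given (limma adjusted p = 0.0381 against posterior and 0.011 against anterior cells). The 3 delaminating arrays were close together, unlike those of Arpc3A, and all above the 6 others. Against posterior cells the call was lost in 10 of 18 alternative settings. These included leaving out any 1 array other than anterior replicate 3, with adjusted p between 0.0589 and 0.196, and an intensity trend with robust variances (0.0586). Against anterior cells the call held in 17 of 18 alternative settings, the exception being the fit of only the groups compared (adjusted p = 0.0588).

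Regulators of branching sat on the same list as Arpc3B. With Arpc3B counted, 4 of its 5 measured genes had a difference above 0 between delaminating and posterior cells, against 49.5% of all genes. The median of the list, Arpc3B included, was 0.51, and PICK1 was nearly level at 0.06. GMF, which removes branches, had log2 signals of 10.34, 10.57 and 10.14 in delaminating cells, against 9.63, 9.50 and 10.02 in posterior cells. These did not overlap, at a difference of 0.63 (adjusted p = 0.284), and against anterior cells at 0.84 (0.0535). Cortactin, which stabilises branches, had 8.04, 8.10 and 8.31 in delaminating cells, against 7.62, 7.72 and 7.56 in posterior cells, also separate (difference 0.51, adjusted p = 0.643). coro, the fly coronin, ran the other way, with every delaminating value below every posterior value (difference -0.20, adjusted p = 0.815).

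Vrp1, the WIP homolog that binds WASp, was at 6.21, 7.37 and 6.57 in delaminating cells, against 5.39, 5.86 and 5.37 in posterior and 5.53, 5.27 and 4.55 in anterior cells. The posterior and anterior means were below the lower quartile, so no fold is given. Vrp1 was called against anterior (adjusted p = 0.0288) and not against posterior cells (0.213), and its highest value was on the array with the most hemocyte signal. Without delaminating replicate 2 the call against anterior cells was lost (adjusted p = 0.0809), as it was without delaminating replicate 3 (0.086), posterior replicate 1 (0.0552) or 3 (0.0523) or anterior replicate 2 (0.0686) or 3 (0.0513). Over 18 alternative settings this call was lost in 8, quantile normalization again and only the groups compared among them. The Vrp1 difference from anterior cells lay between 0.99 and 1.85 over these settings, against 1.60 as reported. The call held without both delaminating replicate 2 and anterior replicate 3 (0.0475). The 4 other measured WASp partners and membrane adaptors had differences between -0.04 and 0.09 from posterior cells. Among upstream exchange factors trio, which activates Rac, had 7.77, 8.06 and 7.48 in delaminating cells, against 6.96, 7.04 and 7.26 in posterior cells (difference 0.68, adjusted p = 0.326). Abl, a kinase upstream of the WAVE complex, had -0.23 (0.851).

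Genes that handle actin monomers and filaments had 3 of 4 measured members above 0 between delaminating and posterior cells, with a median of 0.25 and 0 called by limma (2 at an unadjusted p under 0.05, against 9.98% of all genes). cib, an actin monomer binding protein, had log2 signals of 12.22, 12.33 and 12.31 in delaminating cells, against 11.68, 11.72 and 11.54 in posterior cells. tsr, the fly cofilin, which severs filaments, had 12.98, 13.14 and 12.96 in delaminating cells, against 12.60, 12.70 and 12.61 in posterior cells. Both were separate, at differences of 0.64 (adjusted p = 0.123) and 0.39 (0.403). ssh, the phosphatase that activates cofilin, lay lower on all delaminating arrays (difference -0.34, adjusted p = 0.527).

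Of 7 genes that act upstream of Arp2/3 in myoblast fusion, 6 had a difference below 0 in delaminating against posterior cells. Of all genes 49.5% were above 0. hbs was the 1 called, against 0.159% of all genes called lower. rst had -1.31 and sing -0.55, with every delaminating value below every posterior value (limma adjusted p = 0.148 and 0.383). The receptor genes sns and kirre had -0.20 and -0.40 and rols had -0.23, with overlapping groups (adjusted p = 0.873, 0.774 and 0.774). Only blow was above 0, at 0.46, with every delaminating value above every posterior value (0.49). Against anterior cells hbs, rst and kirre, genes of immunoglobulin cell adhesion proteins, were called lower, at 4.50-fold, 6.66-fold and 2.45-fold (limma adjusted p = 0.00106, 0.0021 and 0.0459). hbs had log2 signals of 9.45, 10.18 and 9.21 in delaminating cells, against 10.82, 10.91 and 10.92 in posterior and 11.69, 11.94 and 11.72 in anterior cells. Against posterior cells hbs was 2.41-fold lower (adjusted p = 0.0465), a call lost in 10 of 19 settings and kept without delaminating replicate 2 or anterior replicate 3. Without any other array its adjusted p was 0.0706 to 0.196. The kirre call was lost in 11 of 19 settings, every array left out other than anterior replicate 3 among them (adjusted p 0.0504 to 0.166). With the mean of its probe sets kirre had a difference of -0.69 in place of -1.30. Markers of muscle precursors were set beside these genes. The mean log2 signal of 5 of 8 listed markers with a probe set, hbs among them, was 6.47 to 7.12 on delaminating, 7.02 to 7.77 on posterior and 10.86 to 11.20 on anterior arrays. All 5 were called lower in delaminating than in anterior cells (1.43% of all genes). Against posterior cells Him and hbs were called lower (0.159% of all genes). zfh1 ran the other way, at a mean of 8.03 in delaminating and 6.66 in posterior cells (difference 1.37, limma adjusted p = 0.413). The part of muscle precursor RNA in the fusion gene signals was not tested.

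**Figure D4:**
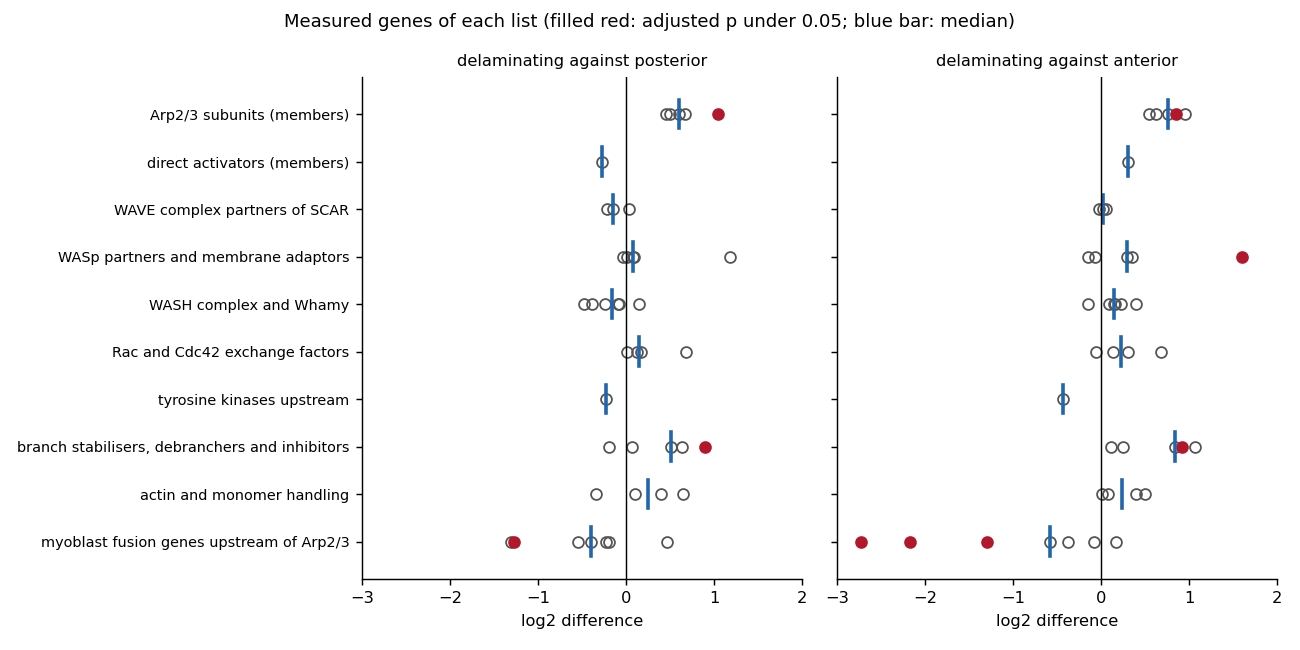
Log2 differences (x axis) of the measured genes of each list (y axis) in delaminating against posterior cells (left) and against anterior cells (right), filled red where the adjusted p was under 0.05, with the median of each list as a blue bar. The subunits and the list of branch regulators, which includes Arpc3B, lie mostly above 0. The WAVE and WASH partners lie near 0 and the myoblast fusion genes mostly below 0.

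Marker signals were set beside the members because blood cells and muscle precursors use Arp2/3 heavily. Of the 12 hemocyte markers, 10 had a difference above 0 in delaminating against posterior cells (49.5% of all genes), with a median of 0.90. Of the 12, limma called 0, with 5 at an unadjusted p under 0.05 (9.98% of all genes). He, Pxn and Ppn had delaminating values entirely above the posterior values (10.7% of all genes), and ush entirely below (11.5%). Delaminating replicate 2 had the highest delaminating value for all 12. On that array Arpc1, Arpc2 and SCAR also had their highest or joint highest delaminating value, while Arpc3A, Arpc4 and Arpc5 had their lowest. The part of hemocyte RNA in the subunit signals was not tested. Leaving out that array cannot test it, because the other delaminating arrays also carried hemocyte signal. On these, He was at 8.07 and 8.22, against 5.32 to 7.64 on posterior arrays. Averaged over all 12 markers they were at 7.85 and 7.74, against 6.98 to 8.01. Markers of wing disc epithelium, 5 of 7 measured, had mean log2 signals of 11.10 to 11.28 in delaminating, 11.28 to 11.39 in posterior and 11.01 to 11.33 in anterior cells. Single epithelial genes went both ways between delaminating and posterior cells without a call, from -0.63 for nub (adjusted p = 0.356) to 0.28 for shg (0.616). Tracheal markers, 4 of 5 measured, averaged 10.67 to 11.02 on delaminating, 10.71 to 10.75 on posterior and 9.74 to 10.34 on anterior arrays. Gasp and serp, 2 of the 4, were called higher in delaminating than in anterior cells (2.4% of all genes). verm had a difference of 0.63 there without a call. btl was level, with means of 8.84 in delaminating, 8.78 in posterior and 8.88 in anterior cells. Glial markers averaged 8.17 to 8.25, 7.62 to 7.74 and 6.89 to 7.47 in the same order, with the defining gene repo below the lower quartile on all 9 arrays. Between delaminating and posterior cells this order came from moody, with means of 9.81 in delaminating, 7.69 in posterior and 6.38 in anterior cells. In delaminating cells moody was called against anterior (limma adjusted p = 0.0021) and not against posterior cells (0.0576). The differences of repo, nrv2 and gcm between delaminating and posterior cells were 0.07, 0.12 and -0.24. Between posterior and anterior cells they were 0.36, 0.16 and 0.19. All 4 markers were above 0 there (60.7% of all genes), with 0 called. Neuron markers, at 9.06 to 9.42 over all arrays, and fat body markers, at 6.11 to 7.18, showed no such order.

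**Figure D5:**
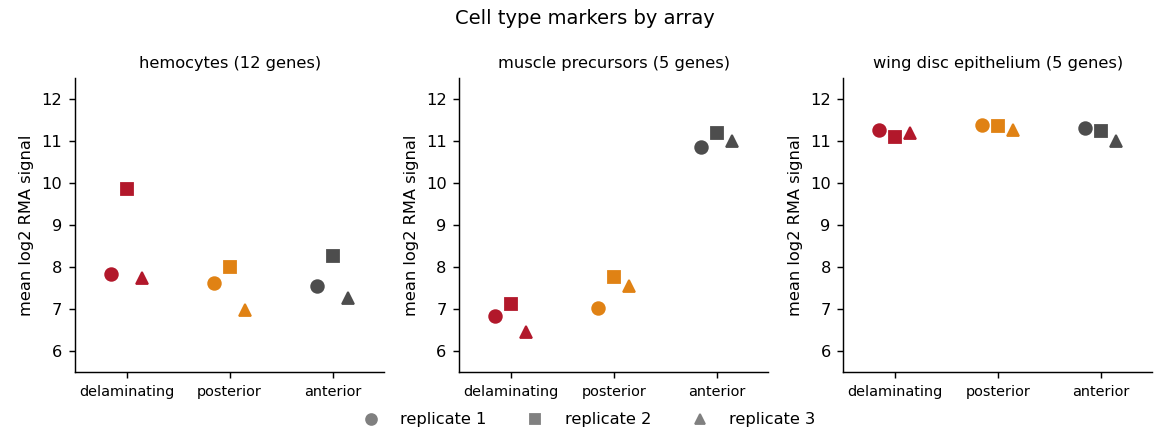
Mean log2 RMA signal (y axis) of the measured hemocyte, muscle precursor and wing disc epithelium markers on each array, by group (x axis), with points shaped by replicate number. Delaminating replicate 2 stands out for hemocyte markers at 9.86, the anterior arrays for muscle precursor markers at 10.86 to 11.20, and epithelial markers lie between 11.01 and 11.39 on all arrays.

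The genes whose pattern over the 9 arrays was most like that of Arpc1, by Pearson correlation among all genes, were Targ1 (r = 0.992), Arl8 (0.981), flr (0.978), vir-1 (0.978) and Jra (0.974). flr encodes the fly Aip1, which helps cofilin to take filaments apart, with mean log2 signals of 11.64 in delaminating, 11.01 in posterior and 11.01 in anterior cells. Jra encodes the fly Jun, with 9.98, 8.88 and 9.07 in the same order. The mean signal of the 5 measured subunits was 10.78 ± 0.19 in delaminating, 10.13 ± 0.01 in posterior and 10.04 ± 0.26 in anterior cells (SD over n = 3 arrays each, log2), and was most like that of frm (r = 0.996), prage (0.986), GstD3 (0.985), wun (0.985) and aspr (0.984). These correlations describe 9 arrays in 3 groups and were picked as the highest of all genes, so they carry no test.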

How the data were processed

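RNA of sorted cells was amplified as a whole transcriptome, labelled with biotin and hybridised to Affymetrix arrays, per the labels' protocols. The authors deposited log2 values, which come from RMA per the submitters' processing notes, version not stated. They were analysed without further normalization. Precision is limited by the number of arrays.

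Of 18952 probe sets, 183 controls were left out, and 402 with several gene symbols and 4720 with none stayed out of the tests by gene. Symbols and chromosome arms came from RefSeq (GCF_000001215.4), matched through gene identifiers for 11893 of 11982 genes. Of several probe sets of a gene, the one with the highest mean over 9 arrays was used. Sequences are not printed.

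limma 3.58.1 in R 4.3.3 fitted a mean per group to all 9 arrays, with moderated variances. The two-sided p values were adjusted by Benjamini-Hochberg over all genes. Members and lists were chosen with earlier results of these data known, and 1 list is not reported here. All members are named, and of other lists the called genes or up to 2 with the smallest p. Genes of like pattern were the 5 with the highest Pearson correlation. GMF, PICK1, blow, sns, sing, rols and FAM21 as the end of a range were chosen after their values were seen. So were the marker genes named and the further comparisons shown for named genes. On simulated arrays for delaminating against posterior cells, with 200 of 11982 genes changed, a log2 difference of 1 was recovered for 30.5% and of 2 for 89%. The simulated noise was independent between genes and arrays, with no array set apart, unlike the real arrays, so recovery on these may differ.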

Additional observations from a re-analysis of the deposited data

How the results depend on the processing

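Of 342 repeats of the members' 18 differences under 19 alternative settings, 301 kept their direction and side of the threshold, 17 lost the Arpc1 call, 16 gained a call and 8 changed sign. Many of these settings change only the spread, the genes tested or arrays outside the comparison. In those the direction could not change, so the 301 do not measure how stable it is. The Arpc4 difference of 0.02 between posterior and anterior cells became -0.14 with quantile normalization again, -0.01 with centring on medians, -0.16 with array weights, -0.18 without anterior 3 and delaminating 2, and lay between -0.18 and 0.12 with 1 array left out. SCAR in delaminating against anterior cells turned to -0.02 with array weights and -0.08 without both arrays. Members called in delaminating against posterior cells numbered 1, against 0 with a replicate block (Arpc1 adjusted p = 0.0547), 4 with array weights, 4 without both arrays and 0 to 2 with 1 array left out. Against anterior cells they numbered 1, against 2 without the dimmest 25% of genes, 2 with an intensity trend, 5 with array weights, 3 without both arrays, 0 with only the groups compared and 0 to 1 with 1 array left out. Whether replicate numbers mark arrays prepared together is not stated. Deviations of same-numbered arrays had correlations from -0.12 to 0.18, which cannot settle it. The mean of the hemocyte markers was highest on replicate 2 and lowest on replicate 3 in every group. The replicate block changed no other call among the members. Outside them it ended the calls of Arpc3B (adjusted p = 0.0767) and hbs (0.0547) against posterior cells. Over all genes, calls in delaminating against posterior cells numbered 96, against 185 with only the groups compared, 749 with array weights, 270 without both arrays, 66 with a replicate block and 17 to 281 with 1 array left out. In posterior against anterior cells they numbered 69, against 129 with all probe sets, 427 with array weights and 35 to 88 with 1 array left out. In delaminating against anterior cells they numbered 458, against 709 with all probe sets, 180 with only the groups compared, 1974 with array weights and 212 to 567 with 1 array left out. The cause of these changes was not tested. Scaling or weighting moved the median of all genes by 0.069 at most (log2). Signals below the lower quartile of an array were not shown to be above background.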

Other observations

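Delaminating replicate 2 departed from the other arrays of its group in opposite directions for different subunits. Replicate 2 had the lowest delaminating value for Arpc3A, Arpc4 and Arpc5 and the highest for Arpc1 and Arpc2, and over all genes it was lowest for 45.6% and highest for 33.5%. The drop of Arpc3A on that array was of like size in its dimmer probe set, at 7.28 against 8.68 and 8.72 on the other delaminating arrays. On the posterior arrays the subunits were tightly grouped, with SDs from 0.04 for Arpc2 to 0.13 for Arpc3A.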
